A study of Mus musculus with 10 samples.

Results

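Secretory Rab GTPases were compared between pancreatic islets of 2 mouse strains. The group held 7 genes, Rab3a, Rab3b, Rab3c, Rab3d, Rab27a, Rab27b and Rab37, chosen by name and function with earlier results of these data known. All 7 were found on the array, among 19938 genes that could be measured. Each was represented by 1 probe set annotated to that gene alone, so no choice between probe sets was needed. For the same reason no value could be checked by another probe set. Whether the probes match both strains equally was not tested. Islets came from male NZO/Hl mice (NZO, obese and prone to diabetes) and male C3HeB/FeJ mice (C3H in the sample titles), 5 arrays per strain, at 6 weeks of age. From weaning at 21 days, both strains ate a high-fat diet (45% of energy as fat). Isolated islets of both rested overnight in medium containing 10 mM glucose. The labels name no transgene and no drug treatment for either strain. Most titles carry a pair of animal numbers, while that of NZO replicate 4 carries 1 number and that of replicate 5 a range. The labels do not say whether these are pools, so the p-values measure only the spread between these samples. Values are RMA expression on the log2 scale, a difference is NZO minus C3H, and a fold is 2 to the power of that difference.

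Rab GTPases are small membrane-anchored proteins that switch between a GTP-bound active form and a GDP-bound inactive form. The Rab3 and Rab27 proteins sit on secretory granules and recruit effectors that bring granules to the plasma membrane and prepare them for fusion. In beta cells they act in the regulated release of insulin, and Rab3d and Rab27b are also known from the zymogen granules of pancreatic acinar cells. Rab37 is a related granule protein first described in mast cells.

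Beta cell markers were bright on every array, and the signal of endocrine and other pancreatic cells differed between the strains. The mean log2 value of 9 beta cell markers was 11.2 to 11.4 in C3H and 10.4 to 11.3 in NZO. Of these 9, 3 fell by limma, Slc2a2 (-1.54), Ucn3 (-1.12) and Slc30a8 (-1.10). The others were not called, Ins2 (0.12), Nkx6-1 (0.01), Iapp (-0.03), G6pc2 (-0.27), Mafa (-0.45) and Pdx1 (-0.45). Of 4 delta cell markers 3 fell, with a mean of 9.76 to 10.2 in C3H and 9.02 to 9.47 in NZO. Of 4 alpha cell and 2 PP cell markers 1 each fell, and the alpha means (10.31 to 10.35 and 10.01 to 10.31) and PP means (13.5 to 13.7 and 12.9 to 13.4) did not overlap either. For 20 acinar markers, all higher in NZO by limma, this mean (the acinar score) was 8.28 to 9.14 in C3H. In NZO it was 9.88 to 10.5 for replicates 1 to 3, 11.9 for replicate 4 and 11.7 for replicate 5. Replicates 4 and 5 also had the lowest beta cell means (10.4 and 10.6) and the highest duct means (9.34 and 9.35, with 8.27 to 8.70 for replicates 1 to 3). Of 5 mast cell markers 4, Cpa3, Mcpt4, Ms4a2 and Fcer1a, lay below the 25th percentile of probe sets in both strains, and the mast cell mean was 4.83 to 5.21 in C3H and 4.80 to 5.13 in NZO.

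Of the 7 secretory Rab genes, Rab3c and Rab3a were lower in NZO islets and Rab37 was higher, while Rab3b, Rab3d, Rab27a and Rab27b did not pass the test. The test was limma with Benjamini-Hochberg adjustment over all genes and a threshold of 0.05. With it, 3 of 7 members (42.9%) were called, where 10.1% of all genes were called. The members were chosen with earlier results of these data known, so these shares are a description and not a neutral comparison. The same 3 genes had values that did not overlap between the strains, which held for 9.14% of all genes. The median difference was -0.12 over the 7 members and -0.02 over all genes, and the median size of a difference, whatever its sign, was 0.19 over the members against 0.10 over all genes. Without NZO replicates 4 and 5 these medians were -0.03 and -0.02, and in a fit that also took in the acinar score 0.02 and -0.02, so the median set the members apart from all genes in neither fit. The endocrine markers called were lower in NZO, as Rab3c and Rab3a were, and their part in those differences was not tested. In whole islets, fewer cells of a type and less RNA per cell cannot be told apart.

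**Figure D1:**
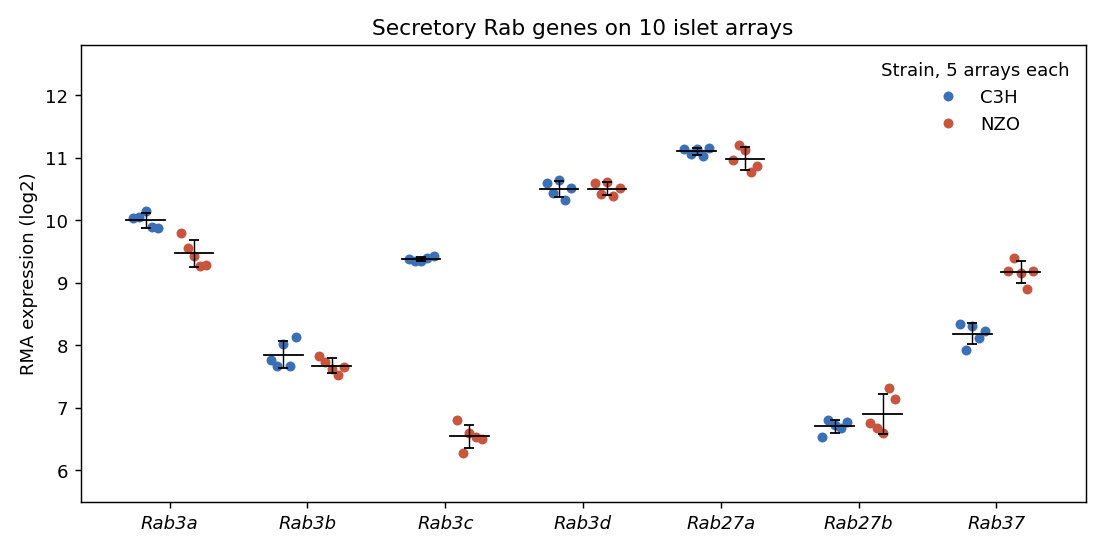
RMA expression (log2, y axis) of the 7 secretory Rab genes on each array, blue for C3H and red for NZO (5 arrays each), with the mean and SD in black. Rab3c, Rab3a and Rab37 separate by strain without overlap, and the other 4 genes overlap. Heights of different genes cannot be compared, since probe sets differ in brightness per transcript.

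Rab3c encodes the Rab3 isoform found on synaptic and secretory vesicles of neurons and endocrine cells. It read 9.39, 9.35, 9.36, 9.39 and 9.43 on C3H replicates 1 to 5, and 6.81, 6.28, 6.59, 6.54 and 6.51 on NZO replicates 1 to 5. Every NZO array lay far below every C3H array, and the C3H arrays were nearly identical. The mean fell by 2.84 log2 units (SE 0.09, 95% interval -3.03 to -2.65, limma adjusted p = 1.01e-10), from 9.38 ± 0.03 to 6.54 ± 0.19 (SD, n = 5 each), or 7.15-fold. Only 2 of 19938 genes had a more negative difference. Among all probe sets of an array, the Rab3c probe set had percentiles of 82.5 to 85.4 in C3H and of 36.0 to 47.8 in NZO. The deposited values carry no detection call, so the NZO level was not shown to be above background, and RMA compresses differences of dim probe sets. The difference was -2.82 without NZO replicates 4 and 5. When the acinar score entered the fit as a covariate (the acinar-adjusted fit), it was -2.84 (SE 0.18, limma adjusted p = 1.94e-06).

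Rab3a encodes the best studied Rab3 isoform, which is needed for normal insulin secretion in mice. It read 10.04, 10.05, 10.15, 9.89 and 9.87 in C3H and 9.80, 9.56, 9.43, 9.27 and 9.29 in NZO. The strains did not overlap, but NZO replicate 1 lay just under the lowest C3H array. The difference was -0.53 (SE 0.10, 95% interval -0.75 to -0.31, limma adjusted p = 0.00407), a 1.44-fold lower signal, at 10.00 ± 0.12 in C3H and 9.47 ± 0.22 in NZO. The lowest values were on NZO replicates 4 and 5, which had the highest acinar scores. Without these arrays the difference was -0.40 (limma adjusted p = 0.0449). In the acinar-adjusted fit it was -0.20 (SE 0.19, limma adjusted p = 0.999) and no longer passed. The scores of the strains did not overlap, so this fit by itself multiplies the SE of a strain difference by 1.99.

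Rab3b, a Rab3 isoform of secretory cells, and Rab3d, the isoform of zymogen granules, did not pass. Rab3b ranged from 7.67 to 8.13 in C3H (median 7.76) and from 7.53 to 7.83 in NZO (median 7.66). Its difference was -0.17 with a 95% interval of -0.39 to 0.04 (limma adjusted p = 0.371). Rab3d read 10.59, 10.44, 10.64, 10.32 and 10.52 in C3H and 10.59, 10.42, 10.62, 10.39 and 10.51 in NZO. The Rab3d ranges were almost the same, with a difference of 0.01 and a 95% interval of -0.17 to 0.18 (limma adjusted p = 0.982). All 20 acinar markers were higher in NZO, and the part of acinar signal in the Rab3d values was not tested.

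Rab27a and Rab27b, a pair of paralogs that share effectors with the Rab3 proteins, did not pass either. Rab27a, the isoform studied in insulin granule docking, ranged from 11.03 to 11.16 in C3H (median 11.14) and from 10.77 to 11.21 in NZO (median 10.96). The lowest NZO values, 10.77 and 10.87, were on NZO replicates 4 and 5. The difference was -0.12 (95% interval -0.31 to 0.07, limma adjusted p = 0.522). Without these arrays it was -0.0049 (SE 0.09). Rab27b, known from zymogen granules, read 6.54, 6.81, 6.73, 6.67 and 6.77 in C3H and 6.76, 6.67, 6.60, 7.32 and 7.14 in NZO. Replicates 4 and 5 of NZO were the only arrays above 7, and the other 3 NZO arrays lay inside the C3H range. The difference of 0.19 (95% interval -0.08 to 0.47, limma adjusted p = 0.452) became -0.03 (SE 0.09) without these arrays and -0.33 (SE 0.20) in the acinar-adjusted fit, neither past the threshold. The part of acinar signal in the Rab27b values was not tested beyond these fits.

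Rab37 was the member that rose. It read 8.35, 7.93, 8.31, 8.12 and 8.23 in C3H and 9.19, 9.41, 9.16, 8.91 and 9.18 in NZO. Every NZO array was above every C3H array, and the lowest NZO value was on replicate 4. The mean rose by 0.98 (SE 0.10, 95% interval 0.76 to 1.20, limma adjusted p = 2.36e-05), from 8.19 ± 0.17 to 9.17 ± 0.18, a 1.98-fold difference. The Rab37 probe set had percentiles of 64.8 to 70.8 on the C3H arrays and of 77.7 to 84.3 on the NZO arrays. The difference was 1.07 without NZO replicates 4 and 5 and 1.16 (SE 0.20, limma adjusted p = 0.0100) in the acinar-adjusted fit.

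**Figure D2:**
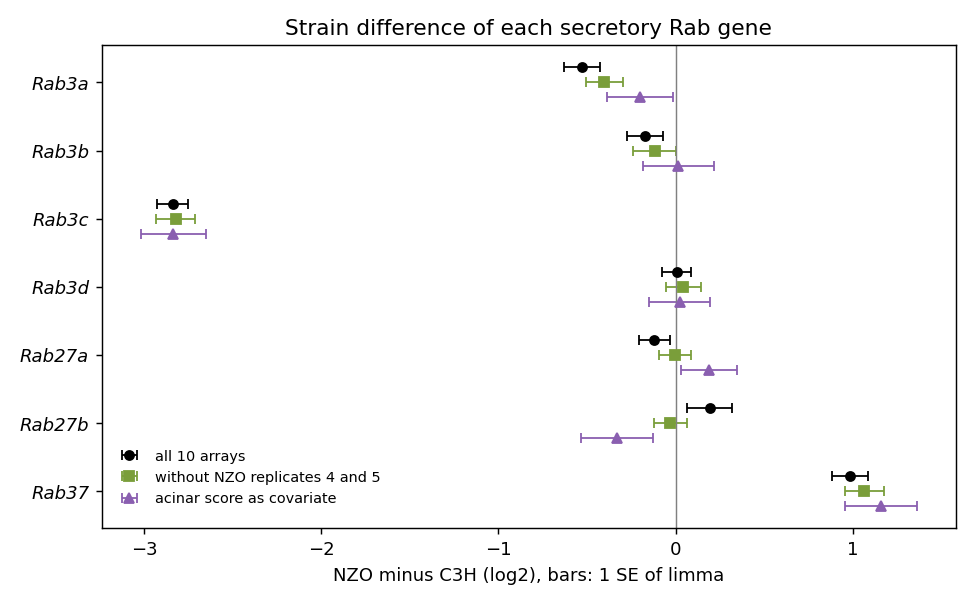
NZO minus C3H difference (log2, x axis) of each gene with 1 SE of limma, over all 10 arrays (black circles), without NZO replicates 4 and 5 (green squares) and in the acinar-adjusted fit (purple triangles). Rab3c stays near -2.8 and Rab37 near 1 in all 3 fits, while Rab3a moves from -0.53 to -0.20 and Rab27b from 0.19 to -0.33.

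The acinar score and the Rab values varied together to different degrees within NZO. Over NZO replicates 1 to 5, scores of 10.1, 9.88, 10.5, 11.9 and 11.7 went with the Rab3a values given above, of which the lowest were on replicates 4 and 5. Rab3c showed no such order, as its lowest NZO value was on replicate 2, the NZO array with the lowest score. Rab37 was highest on that array, at 9.41, and lowest on replicate 4, at 8.91. Replicate 5, with a score of 11.7, read 9.18 for Rab37, close to replicates 1 (9.19) and 3 (9.16). Within C3H the scores were 9.14, 8.28, 8.84, 8.56 and 8.31 on replicates 1 to 5. There Rab37 was highest at the highest score (8.35, replicate 1) and lowest at the lowest (7.93, replicate 2). The lowest C3H values of Rab3a, 9.89 and 9.87, were at scores of 8.56 and 8.31, but the array with the lowest score (8.28, replicate 2) read 10.05. The acinar-adjusted fit takes 1 slope for both strains, which was not tested.

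**Figure D3:**
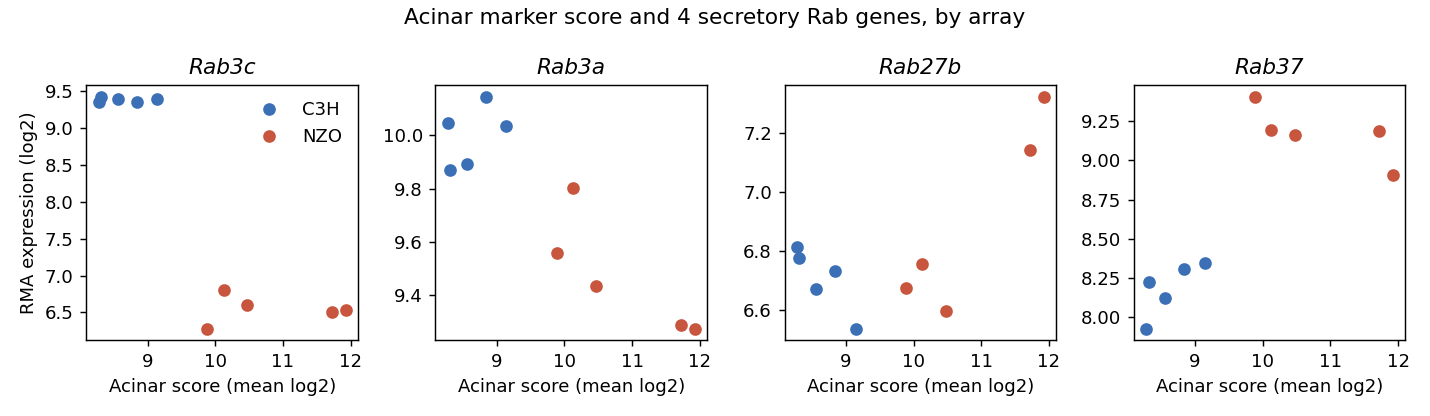
RMA expression (log2, y axis) of Rab3c, Rab3a, Rab27b and Rab37 against the acinar score (mean log2 value of 20 acinar markers, x axis) on each array, blue for C3H and red for NZO. The Rab27b values above 7 and the lowest Rab3a values are on the NZO arrays with scores of 11.7 and 11.9, and Rab3c and Rab37 separate by strain, as the scores themselves do.

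Paralogs were also compared within each array, as the log2 value of one minus that of another, which shows whether both changed by the same factor. The size of such a ratio is not one of transcript numbers, because probe sets differ in brightness. In all, 7 pairs were compared by exact two-sided permutation of the strain labels, where the smallest p possible is 0.00794. Rab3c minus Rab3a was -0.79 to -0.45 in C3H and -3.28 to -2.74 in NZO, a shift of -2.31 (exact p = 0.00794, 0.0139 adjusted over the 7 pairs). The fall of Rab3c was thus larger than that of Rab3a on the same arrays. Rab3c minus Rab3b went from 1.30 to 1.72 in C3H to -1.46 to -0.99 in NZO, and Rab3c minus Rab3d shifted by -2.85, each with an exact p of 0.00794 and an adjusted p of 0.0139. Rab3a minus Rab3d shifted by -0.54, from -0.65 to -0.39 in C3H to -1.23 to -0.79 in NZO (exact p = 0.00794, adjusted p = 0.0139). Rab3a minus Rab3b shifted by -0.35 with overlapping ranges (exact p = 0.0397, adjusted p = 0.0556), and passed only when C3H replicate 5 was left out (-0.45, adjusted exact p = 0.0222). Rab3b minus Rab3d (-0.18, exact p = 0.0794, adjusted p = 0.0926) and Rab27a minus Rab27b (-0.31, exact p = 0.270, adjusted p = 0.270) did not pass. In NZO the last ratio was 3.44 and 3.73 for replicates 4 and 5 and 4.20 to 4.54 for replicates 1 to 3, and in C3H it was 4.26 to 4.60.

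**Figure D4:**
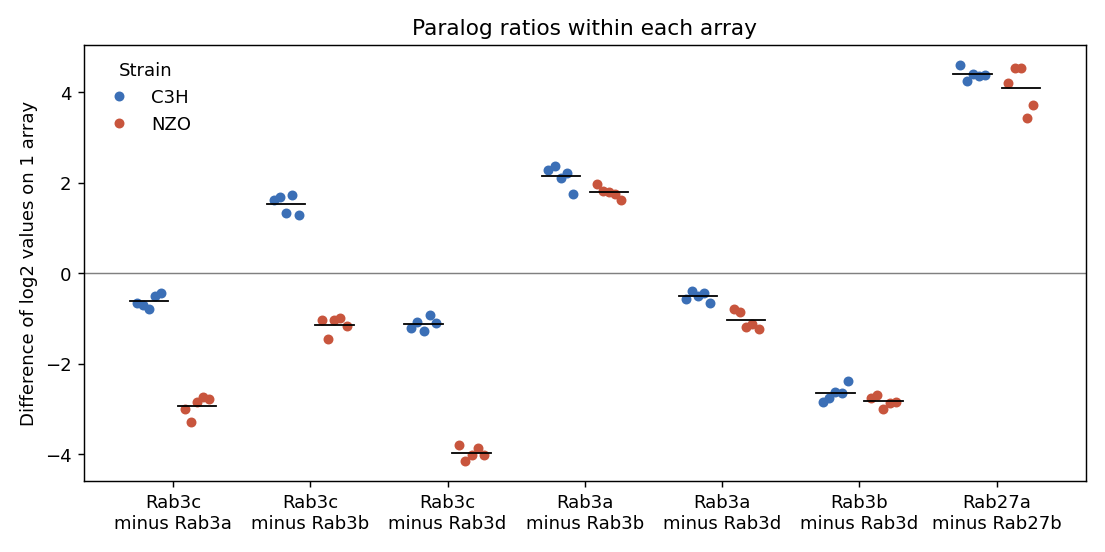
Difference of log2 values of paralog pairs on each array (y axis), blue for C3H and red for NZO, with the mean of each strain as a black line. The 3 pairs with Rab3c shift by -2.31 to -2.85 and do not overlap, and Rab27a minus Rab27b overlaps between the strains.

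A sum of the 7 linear signals was taken as a total. It weights bright probe sets most and is described here with no test. On C3H replicates 1 to 5 it was 6151, 5806, 6341, 5568 and 6060, and on NZO replicates 1 to 5 it was 5462, 5571, 5477, 4624 and 4973. The highest NZO array was barely above the lowest C3H array. The mean went from 5985 ± 302 to 5221 ± 408, a change of -12.8%. The lowest sums were on NZO replicates 4 and 5, and without them the NZO mean was 5503 ± 60 and the change -8.05%. The sum over the 4 Rab3 genes alone was 3103 to 3647 in C3H and 2242 to 2776 in NZO, a change of -26.8%, or -23.5% without those arrays. On the unweighted scale, the mean of the 7 log2 values was 9.01 to 9.19 in C3H and 8.67 to 8.85 in NZO. Rab3c (-2.84) had by far the largest difference in this mean, so it does not describe a fall of the group. Rab3a (-0.53), Rab3b (-0.17) and Rab27a (-0.12) were also lower in NZO, and Rab3d (0.01), Rab27b (0.19) and Rab37 (0.98) were higher. The members did not move together. From C3H to NZO the mean share of the 7-gene sum went from 11.2% to 1.81% for Rab3c and from 17.1% to 13.7% for Rab3a. It went from 4.89% to 11.1% for Rab37, from 24.3% to 28.0% for Rab3d and from 36.9% to 39.1% for Rab27a. A share also depends on the other members, and the sum was smaller in NZO. The larger shares of Rab3d and Rab27a are thus no rise of these genes, whose own log2 differences were 0.01 and -0.12. Rab3b (3.89% and 3.94%) and Rab27b (1.75% and 2.38%) were small parts.

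On chromosomes the 7 genes lie apart, and the gene table of GRCm38.p6 was used to place them. Rab3c spans chr13:110054187-110280996 and Rab3a the much shorter chr8:70754703-70758608. Rab37 spans chr11:115091331-115162773, an interval that overlaps Cd300lf, whose own probe set differed by 0.01 between the strains. Of the 3 tested genes on each side of Rab3c, 1 was called, Depdc1b at -0.27, and the differences of the 6 ran from -0.27 to 0.14. Of the 6 around Rab37, Cd300ld (1.08) and Slc9a3r1 (0.49) were called, both higher in NZO like Rab37, and the lowest difference was 0.01. Of the 6 around Rab3a, 1 was called, Ifi30 at 0.48, in the direction opposite to Rab3a. Around the other members, 1 of 6 was called for Rab3b, 1 for Rab27b and 0 for Rab3d and for Rab27a. In all, 6 of 42 neighbours (14.3%) were called, where 10.1% of all genes were. These neighbours were taken by position, and those named were picked for having been called.

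The promoter windows of the members lower in NZO are shown because Rab3a and Rab3c moved in the same direction. The sequences are from RefSeq on GRCm38.p6, cover 250 bases before to 50 after a transcript start, and are written 5′ to 3′ on the gene's strand, with capitals for any match on either strand. One motif searched was TGACG, the half-site of the cyclic AMP response element. Another was the CCAAT box. The remaining one was GGGCGG, a core bound by Sp1. None of these contains another. The Rab3a window shown is chr8:70754453-70754752 on the plus strand, and the Rab3c window is chr13:110280157-110280456 on the minus strand, at a start inside the outer bound of the gene.
Rab3a: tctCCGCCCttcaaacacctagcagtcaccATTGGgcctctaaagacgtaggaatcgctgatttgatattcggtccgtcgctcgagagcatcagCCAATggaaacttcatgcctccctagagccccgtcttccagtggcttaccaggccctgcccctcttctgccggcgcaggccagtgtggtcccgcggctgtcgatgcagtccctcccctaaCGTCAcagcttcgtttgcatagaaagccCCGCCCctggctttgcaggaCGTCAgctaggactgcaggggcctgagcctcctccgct
Rab3c: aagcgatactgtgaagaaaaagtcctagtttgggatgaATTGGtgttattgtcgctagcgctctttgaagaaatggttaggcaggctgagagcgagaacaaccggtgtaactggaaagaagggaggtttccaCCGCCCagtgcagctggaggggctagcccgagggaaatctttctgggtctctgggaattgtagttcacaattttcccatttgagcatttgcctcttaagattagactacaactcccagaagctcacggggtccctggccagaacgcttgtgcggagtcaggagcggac
The Rab3a window shown holds 2 matches to the half-site, 2 to the CCAAT box and 2 to the Sp1 core. RefSeq gives Rab3a a further start, whose window, chr8:70754852-70755151, holds 0 matches to each of the 3 motifs. The Rab3c window holds 1 match to the CCAAT box, 1 to the Sp1 core and none to the half-site. Of 32851 promoter windows of this length, 20.8% hold the half-site, 37.4% the CCAAT box and 35.7% the Sp1 core. A match is a description of the letters in the window of the reference strain, and nothing was measured on these promoters.

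Other genes had profiles most like those of the 3 called members, by the root mean square difference of values centred on each gene's mean over the 10 arrays. For Rab3c these were the aldo-keto reductase Akr1c12 (0.22), the kallikrein Klk1b22 (0.30) and Pianp (0.33), with strain differences of -2.79, -2.999 and -2.25. Akr1c12 and Klk1b22 belong to families of near-identical copies, so the copy measured is uncertain. For Rab3a they were Zfand4 (0.08), Zc3h6 (0.08) and Oxct1 (0.08), the last encoding a ketone body enzyme of mitochondria. For Rab37 they were the chloride channel family gene Clic5 (0.10), the amino acid transporter Slc6a19 (0.15) and Kctd13 (0.16), with differences of 0.84, 0.87 and 1.09.

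Most effectors that bind active Rab3 or Rab27 did not pass, and those that did were lower in NZO. Of 13 measured, 3 fell and 0 rose by limma (at an unadjusted p below 0.05, 3 lower and 1 higher), where 4.61% of all genes were called lower and 5.47% higher. The median was -0.12, against -0.02 over all genes, but -0.05 without NZO replicates 4 and 5, 0.02 in the acinar-adjusted fit and -0.19 with array weights. Sytl4, or granuphilin, which tethers insulin granules at the plasma membrane, went from 10.89 ± 0.10 to 10.31 ± 0.33 (difference -0.59, limma adjusted p = 0.00933), without overlap. Its value was 0.03 (SE 0.18) in the acinar-adjusted fit. Sytl2, a related tether, fell by 0.55 (SE 0.13, limma adjusted p = 0.0138), from 7.39 ± 0.24 to 6.84 ± 0.24, and by 1.09 in the acinar-adjusted fit. Sytl5 differed by -0.33 (SE 0.09, limma adjusted p = 0.0388) with overlapping values, and was not called once C3H replicate 1, 2, 3 or 5, or replicate 2, 4 or 5 of NZO, was dropped (largest limma adjusted p = 0.111). With the mean of all its probe sets it was -0.28 (limma adjusted p = 0.0592), and in the acinar-adjusted fit -0.10 (limma adjusted p = 0.999). The Rab3 effectors Rims2 (-0.16), Rims1 (-0.12), Rph3al (-0.13) and Rph3a (0.09) and the Rab27 effectors Mlph (0.21), Myrip (0.03), Exph5 (-0.10) and Unc13d (-0.01) did not pass.

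Proteins that load, unload or move Rabs between membrane and cytosol mostly did not pass. Of 14 measured genes, 2 fell and 0 rose by limma (unadjusted, 2 lower and 1 higher), or 14.3% against 10.1% of all genes, with a median of 0.01. Rab3gap2, a subunit of the complex that inactivates Rab3, went from 10.41 ± 0.09 to 9.92 ± 0.15 (difference -0.49, SE 0.09, limma adjusted p = 0.00192). It was -0.20 in the acinar-adjusted fit, where its limma adjusted p was 0.999. Chml, a Rab escort protein, differed by -0.37 (limma adjusted p = 0.0417), but was not called after dropping any single array other than C3H replicate 4 (largest limma adjusted p = 0.108). The partner subunit Rab3gap1 (-0.07), the exchange factor Madd (-0.15) and the recycling protein Gdi2 (0.11) did not pass.

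Most genes of the fusion machinery downstream did not pass. Of 17 measured genes, 14 were not called, Vamp8 and Cadps2 rose and Syt9 fell by limma, or 17.6% called against 10.1% of all genes, and the median was -0.05. Vamp8, a vesicle SNARE found on granules of exocrine and other cells, went from 8.91 ± 0.18 to 9.50 ± 0.09 (difference 0.59, SE 0.09, limma adjusted p = 0.000706). Syt9, a calcium sensor for exocytosis, fell by 0.55 (SE 0.08, limma adjusted p = 0.000747), and the priming factor Cadps2 rose by 0.53 (SE 0.12, limma adjusted p = 0.00921). In the acinar-adjusted fit none of these 3 passed (0.57, -0.48 and 0.48, limma adjusted p = 0.282, 0.390 and 0.740). Snap25, the plasma membrane SNARE of insulin release, differed by -0.37 and did not pass (limma adjusted p = 0.0700).

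In the fit without the acinar score, Rab3c (-2.84), Rab37 (0.98) and Rab3a (-0.53) differed more than any of the 52 other Rab GTPases measured, Rab3a only narrowly. The differences of the 52 ran from -0.35 to 0.52 in that fit. In the acinar-adjusted fit Rab3a (-0.20) did not exceed Rab7b (-0.23) in size. The 7 members were chosen with earlier results of these data known, so this is not a neutral comparison. Of these 52, 2 rose and 1 fell by limma (5.77%, against 10.1% of all genes), and their median was 0.01. Rab40b differed by -0.35 (limma adjusted p = 0.0118, or 0.0689 without NZO replicates 4 and 5 and 0.671 in the acinar-adjusted fit). Rab7b, an endosomal Rab of myeloid cells, differed by 0.52 (SE 0.14, limma adjusted p = 0.0309) and by -0.23 in the acinar-adjusted fit. Its NZO range was 6.93 to 7.81. Beside it, the mean of 6 macrophage markers was 7.86 to 8.06 in C3H, and in NZO 8.03 to 8.47 for replicates 1 to 3 and 9.002 and 9.23 for replicates 4 and 5, and its part in the Rab7b difference was not tested. Rab7b was not called once C3H replicate 2, 3, 4 or 5, or replicate 3, 4 or 5 of NZO, was dropped (largest limma adjusted p = 0.0830). Rab20, at 0.24 (limma adjusted p = 0.0448), was not called after dropping any single array other than C3H replicate 4 or NZO replicate 2 (largest limma adjusted p = 0.120), or with arrays centred on their medians (limma adjusted p = 0.0639).

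**Figure D5:**
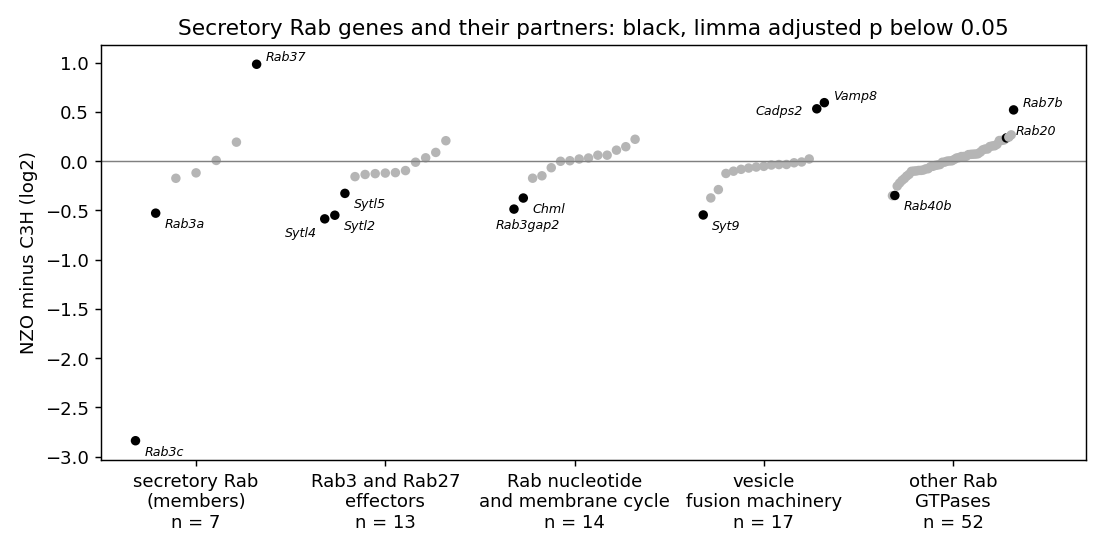
NZO minus C3H difference (log2, y axis) of the 7 secretory Rab genes and of 4 lists of related genes, each ordered from low to high, with genes past a limma adjusted p of 0.05 in black and named. In the fit shown, without the acinar score, Rab3c at -2.84, Rab3a at -0.53 and Rab37 at 0.98 lie outside the range of the 52 other Rab GTPases, -0.35 to 0.52. Rab3a does so only narrowly.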

How the data were processed

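Total RNA (150 ng, integrity number above 8) was amplified, labelled with biotin and hybridised to Affymetrix mouse arrays, per the labels' protocols. The authors deposited log2 expression values that, per the submitters' processing notes, come from the Affymetrix Expression Console with RMA, a method that subtracts background and quantile-normalizes all arrays, so depth and detection calls are unknown. No version or build is given in the sources used here. Array medians were 6.93 to 7.05.

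The table held 35556 probe sets, of which 21789 had exactly 1 gene symbol, 1621 several and 12146 were not named. Of the first, 21698 matched a GRCm38.p6 gene table by Entrez ID, which changed 0 symbols. The brightest probe set per gene gave 19938 genes, with no filter. Strains were compared two-sided with limma 3.58.1 (R 4.3.3; lmFit, then eBayes) without covariates, and the script was tested on simulated data. No fold is given where a strain mean is below the 25th percentile of the arrays. Replicate numbers follow deposition order and the labels give no batch.

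The members, gene lists and markers were chosen with earlier results of these data known. Named genes are the members, up to 4 called genes per list with the smallest p, and the 3 most similar profiles per called member. Others named are given for their values only. Some genes of the lists were not analysed here.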

Additional observations from a re-analysis of the deposited data

How the results depend on the processing

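Alternatives were centring, brightness filters, other eBayes options, array weights, the acinar score as a covariate, the mean of a gene's probe sets, and leaving out arrays. Rab3c (-2.90 to -2.77) and Rab37 (0.92 to 1.16) passed under all 18, and Rab3a under 17, the exception being the covariate (-0.20), with its larger SE. Not all 18 are real checks of a member. The mean of probe sets cannot change its difference, since each member has 1 probe set. Brightness filters and eBayes options leave the difference as it is and act only on its SE and p. Rab3b, Rab3d, Rab27a and Rab27b passed under none, and Rab27b could not be fitted above median brightness.

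With the covariate 238 genes passed in all, without NZO replicates 4 and 5 1105 and with array weights 4125, against 2010. Without those arrays the ratios of Rab3c to Rab3a (-2.42), Rab3b (-2.70) and Rab3d (-2.87) and of Rab3a to Rab3d (-0.44) kept their direction. Each then had an exact p of 0.0357, the smallest among the pairs, or 0.0625 adjusted, so none passed. The adjusted value depends on how many pairs reach the smallest p, so it is not a fixed limit. Leaving out 1 array gave -0.45 to -0.30 for Rab3a to Rab3b. On the log2 scale the total changed by -0.20, by -0.12 without those arrays and by -0.35 as a mean of log2 values. In that mean Rab3c (-2.84) had by far the largest difference.

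With the covariate, 1 effector, 0 cycle, 0 fusion and 0 other Rab genes passed limma, and 3, 0, 2 and 0 had an unadjusted p below 0.05. Without NZO replicates 4 and 5, 1 cycle gene passed and 0 other Rab genes (unadjusted, 5). Above median brightness 1 cycle gene passed, above the 25th percentile 5 other Rab genes, and with array weights 8 other Rab and 5 fusion genes. Leaving out 1 array gave 1 to 3 cycle, 3 to 5 fusion and 1 to 5 other Rab genes. Sytl4 (0.025) and Rab7b (-0.23) reversed with the covariate without passing. The cause was not tested. The number of arrays limits the precision. No paired analysis was possible because the labels give no replicate numbers that the strains share.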
